A study of Mus musculus with 6 samples.

Results

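Msx1, Msx2, Hoxc13, Dlx3, Foxn1, Gata3, Cux1 and Ovol1 encode transcription factors known from the hair matrix and the layers it forms. They were taken by symbol, and each of the 8 matched 1 of the 32285 genes in the tables. Single-cell RNA sequencing libraries came from dorsal skin of wildtype FVB males aged postnatal day 55 to 57 that had been shaved and waxed, which pulls out the resting hairs and starts a new round of hair growth. Skin was taken at 0 h, at 4 h and 16 h, and after 2 d, 4 d and 6 d, and each time point was 1 library of cells from 2 mice, digested separately and mixed at equal cell numbers. Every group thus carries the same genotype and the same depilation, the 0 h library is the baseline, and no undepilated library was used here. Mice cannot be told apart within a library, so 2 time points cannot be tested against each other.

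During hair growth, stem cells of the bulge and hair germ give rise to the matrix, a pool of dividing cells at the base of the follicle. Matrix cells move up and become the hair shaft (the cortex, medulla and cuticle) or the inner root sheath (IRS), the tube that shapes the shaft. The factors sit at different points of that path: MSX1 and MSX2 are homeobox factors of the matrix and of other appendage epithelia, HOXC13 and FOXN1 drive hair keratin genes and FOXN1 is the gene lost in nude mice, DLX3 acts downstream of Wnt signals in the shaft and IRS, GATA3 specifies the IRS, CUX1 is a homeobox factor found in IRS precursors, and OVOL1 is a zinc finger factor that promotes exit from division in epidermis and follicle.

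The 6 libraries held 61031 barcodes, from 7307 at 0 h to 13878 at 4 d, and 72634390 to 112370376 unique molecular identifiers (UMIs, which count captured RNA molecules). After filters and removal of predicted doublets, 49974 cells remained. Median UMIs per barcode ran from 5857.5 at 4 d to 10351 at 16 h. Any 2 libraries shared 7 to 47 barcode sequences. Cells were grouped by clustering that left out the 8 genes. Most clusters were called after the marker genes they expressed (written here without the suffix "-like", which applies to every class). Levels are given in CPM, the usual scaled count in which the UMIs of a gene are divided by all UMIs of the cells summed (a class in a library, or a whole library), with exact Poisson 95% intervals that cover counting error only. They are not set against each other between genes, since they are not scaled for gene length or capture.

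The class with the most UMIs of Msx1, Msx2 and Dlx3 at 4 d was named IRS, the marker set with the largest mean difference. That mean was 4.35 (log2), and 5 of 8 IRS markers stood higher. Of the matrix and precortex markers, 3 of 7 also stood higher in the class. Its leading genes were Krt25, Krt28, Krt35, Krt71, Dcn, Krt73, Krt27, Cldn10, Mt4 and S100a3, so the class joins IRS keratins (Krt25, Krt27, Krt28, Krt71, Krt73) with the shaft keratin Krt35, and it also holds Dcn, a fibroblast gene, the 1 of 6 fibroblast and dermal papilla markers that was higher. It is called the IRS and matrix class from here on. It held 1, 0, 3 and 15 cells at 0 h, 4 h, 16 h and 2 d, 599 cells at 4 d and 136 at 6 d. It therefore speaks for the last 2 time points.

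Msx1 (chr5:37820485-37824583, minus strand, GRCm38) had the largest share of its UMIs in that class of the 8 members. Over whole libraries its level in time order was 0.573 CPM [0.405–0.787], 0.305, 0.274, 0.483, 13.8 [13.0–14.7] and 4.25 [3.79–4.75]. The intervals of the first 4 libraries lay far under those of 4 d and 6 d. At 4 d the IRS and matrix class made up 5.51% of cells and 7.99% of all UMIs but held 80.0% of Msx1 UMIs, and at 6 d it made up 1.51% of cells and held 60.5%. Foxn1 (chr11:78357577-78386558, minus strand) was spread wider. At 4 d the same class held 29.2% of its 195 UMIs, and hair follicle (HF) cluster 2, kept under its number, held 18.5%. Spinous cells of the interfollicular epidermis (IFE), the skin surface between follicles, held 16.4%. The spinous share of Foxn1 UMIs was 41.6% at 6 d, but the class itself was larger there, with 12.3% of cells against 3.35%. The larger share alone therefore does not show a higher level. The 250 bases before the RefSeq start of both genes are printed here 5′ to 3′ on the gene's strand from the C57BL/6J reference (GRCm38.p6), at chr5:37824586-37824835 for Msx1 and chr11:78386609-78386858 for Foxn1, with capitals marking the GC box letters GGGCGG and the CCAAT letters on either strand.
Msx1: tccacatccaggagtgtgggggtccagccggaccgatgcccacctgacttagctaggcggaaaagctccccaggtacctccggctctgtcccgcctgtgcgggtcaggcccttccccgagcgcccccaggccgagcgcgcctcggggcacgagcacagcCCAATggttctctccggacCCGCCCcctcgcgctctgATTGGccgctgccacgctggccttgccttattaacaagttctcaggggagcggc
Foxn1: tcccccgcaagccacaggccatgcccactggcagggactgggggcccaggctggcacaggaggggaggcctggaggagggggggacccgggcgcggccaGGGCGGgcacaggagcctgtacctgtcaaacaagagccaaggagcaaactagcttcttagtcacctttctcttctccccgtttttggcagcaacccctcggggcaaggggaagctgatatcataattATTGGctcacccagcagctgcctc
The Msx1 window held 1 GC box and 2 CCAAT matches, and the Foxn1 window 1 of each. Among 32851 promoters of the same length, 32.7% held GGGCGG and 33.8% held CCAAT, so both are common letters. CTTTGA, the core letters of LEF1 and TCF sites, was in neither window and in 13.8% of all promoters. Sequence was at hand for 5 of the 8 members. The samples were FVB, whose bases here were not read.

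**Figure D1:**
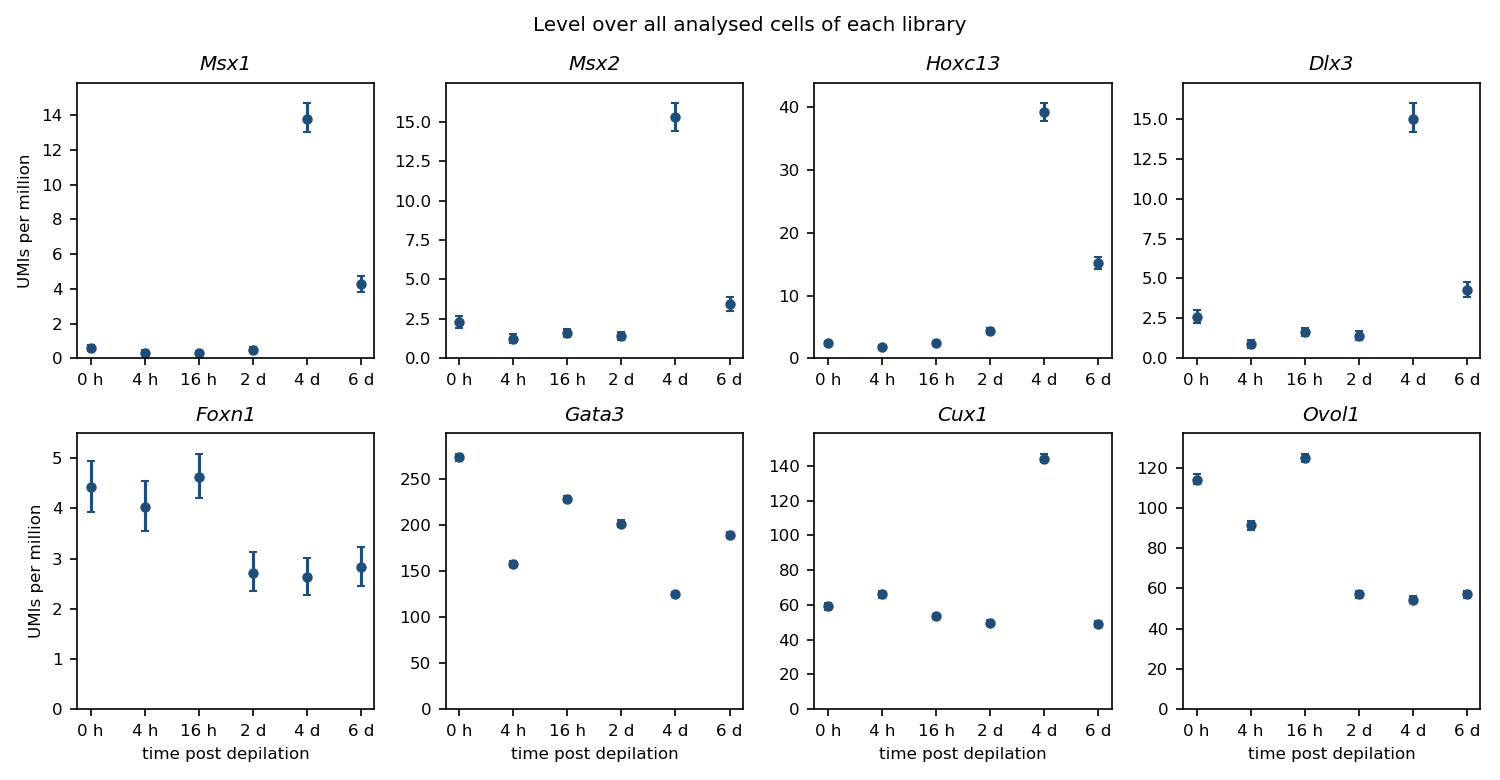
Each panel plots the level of 1 member over all analysed cells (CPM, linear axis from 0) against time post depilation, 1 point per library, with exact Poisson 95% intervals that cover counting error only. Msx1, Msx2, Hoxc13, Dlx3 and Cux1 were highest at 4 d, whereas Foxn1 and Ovol1 were highest at 16 h and Gata3 at 0 h.

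The other matrix homeobox genes shared the 4 d maximum. Msx2 (chr13:53466884-53473074, minus strand) lay between 1.25 and 2.29 CPM in the libraries from 0 h to 2 d, reached 15.3 at 4 d and stood at 3.43 at 6 d. Hoxc13 (chr15:102921103-102928814, plus strand) was at 2.4, 1.77, 2.38, 4.27, 39.2 and 15.2 CPM in time order. Dlx3 (chr11:95120119-95125296, plus strand) was at 2.59, 0.883, 1.64, 1.42, 15 and 4.29. Cux1 (chr5:136248135-136567490, minus strand) lay between 49.1 and 66.0 CPM in 5 libraries and at 144 at 4 d. These 5 members were also highest at 4 d when predicted doublets were kept and when all barcodes were used.

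Foxn1, Gata3 and Ovol1 had no such peak. Foxn1 was at 4.42, 4.02, 4.63, 2.72, 2.63 and 2.83 CPM in time order. Gata3 (chr2:9857078-9890034, minus strand) was lowest at 4 d, at 125 CPM, and highest at 0 h, at 273. Ovol1 (chr19:5549136-5560646, minus strand) lay between 91.4 and 125 CPM up to 16 h and between 54.3 and 57.2 from 2 d on. Over whole libraries, the number of cells of a type and the RNA per cell cannot be told apart.

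Where the 4 d UMIs of the other members lay differed. The IRS and matrix class held 53.0% of Msx2 UMIs and 57.2% of Dlx3 UMIs at 4 d. It held 28.6% of Hoxc13 UMIs, against 52.8% in bulge and outer root sheath (ORS) cells, the stem cell niche and the layer that continues it, and 10.7% in the companion layer between ORS and IRS. Cux1 was split between the IRS and matrix class, with 36.0%, and the bulge and ORS class, with 41.4%. The bulge and ORS class made up 20.8% of cells. Gata3 and Ovol1 UMIs were led by IFE basal cells, with 24% and 26.9%, a class of 18.6% of cells. IFE spinous cells, 3.35% of cells, held 8.92% and 22.4%. IFE granular cells, 0.681% of cells, held 9.03% and 12.5%.

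Inside the IRS and matrix class, the levels at 4 d and 6 d lay close together beside the distance to most other classes. Msx1 was at 138 CPM [129–148] at 4 d from 819 UMIs and at 158 [137–182] at 6 d from 190 UMIs. Msx2 was at 101 and 75.8 CPM, Hoxc13 at 140 and 177, Dlx3 at 108 and 85.0, Gata3 at 234 and 243, Cux1 at 651 and 506, Ovol1 at 62.7 and 71.6, and Foxn1 at 9.61 and 7.5. The 15 cells of the class at 2 d already gave 420 CPM of Cux1 from 86 UMIs, 147 of Hoxc13 from 30 UMIs and 53.7 of Msx2 from 11 UMIs. Msx1 and Ovol1 had 1 UMI each in them, Dlx3 had 3 and Foxn1 none.

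Bulge and ORS cells were lower in Msx1 at both times. They gave 8.38 CPM [7.05–9.89] at 4 d and 8.78 [6.76–11.2] at 6 d, and from 3.12 to 9.21 over all 6 libraries. With the library as a block, edgeR's quasi-likelihood test over the 4 d and 6 d libraries put Msx1 higher in the IRS and matrix class by 4.11 ± 0.215 (log2 ± SE, 17.3-fold; Benjamini-Hochberg adjusted p = 3.02e-12). The bulge and ORS level at 4 d lies inside the interval of melanocytes in that library, at 6.83 CPM [3.41–12.2] from 11 UMIs, cells that should lack the gene. T cells of the same library gave 1.05 CPM. The part of free RNA in the bulge and ORS level, and so in the fold, was not tested. At 6 d melanocytes had 0 UMIs, which leaves a level of up to 10.0 CPM. The shares of cells pointed the same way. After each cell was thinned to 2000 UMIs, Msx1 was seen in 18.9% of 592 IRS and matrix cells [15.8–22.3] at 4 d and in 1.68% of 2208 bulge and ORS cells [1.18–2.3] (46.9% and 5.48% before thinning). T cells, which should lack the gene, gave 0 of 461 cells, which allows a share of up to 0.651%. Median UMIs per cell were 9160, 6614.5 and 2231 in these classes.

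**Figure D2:**
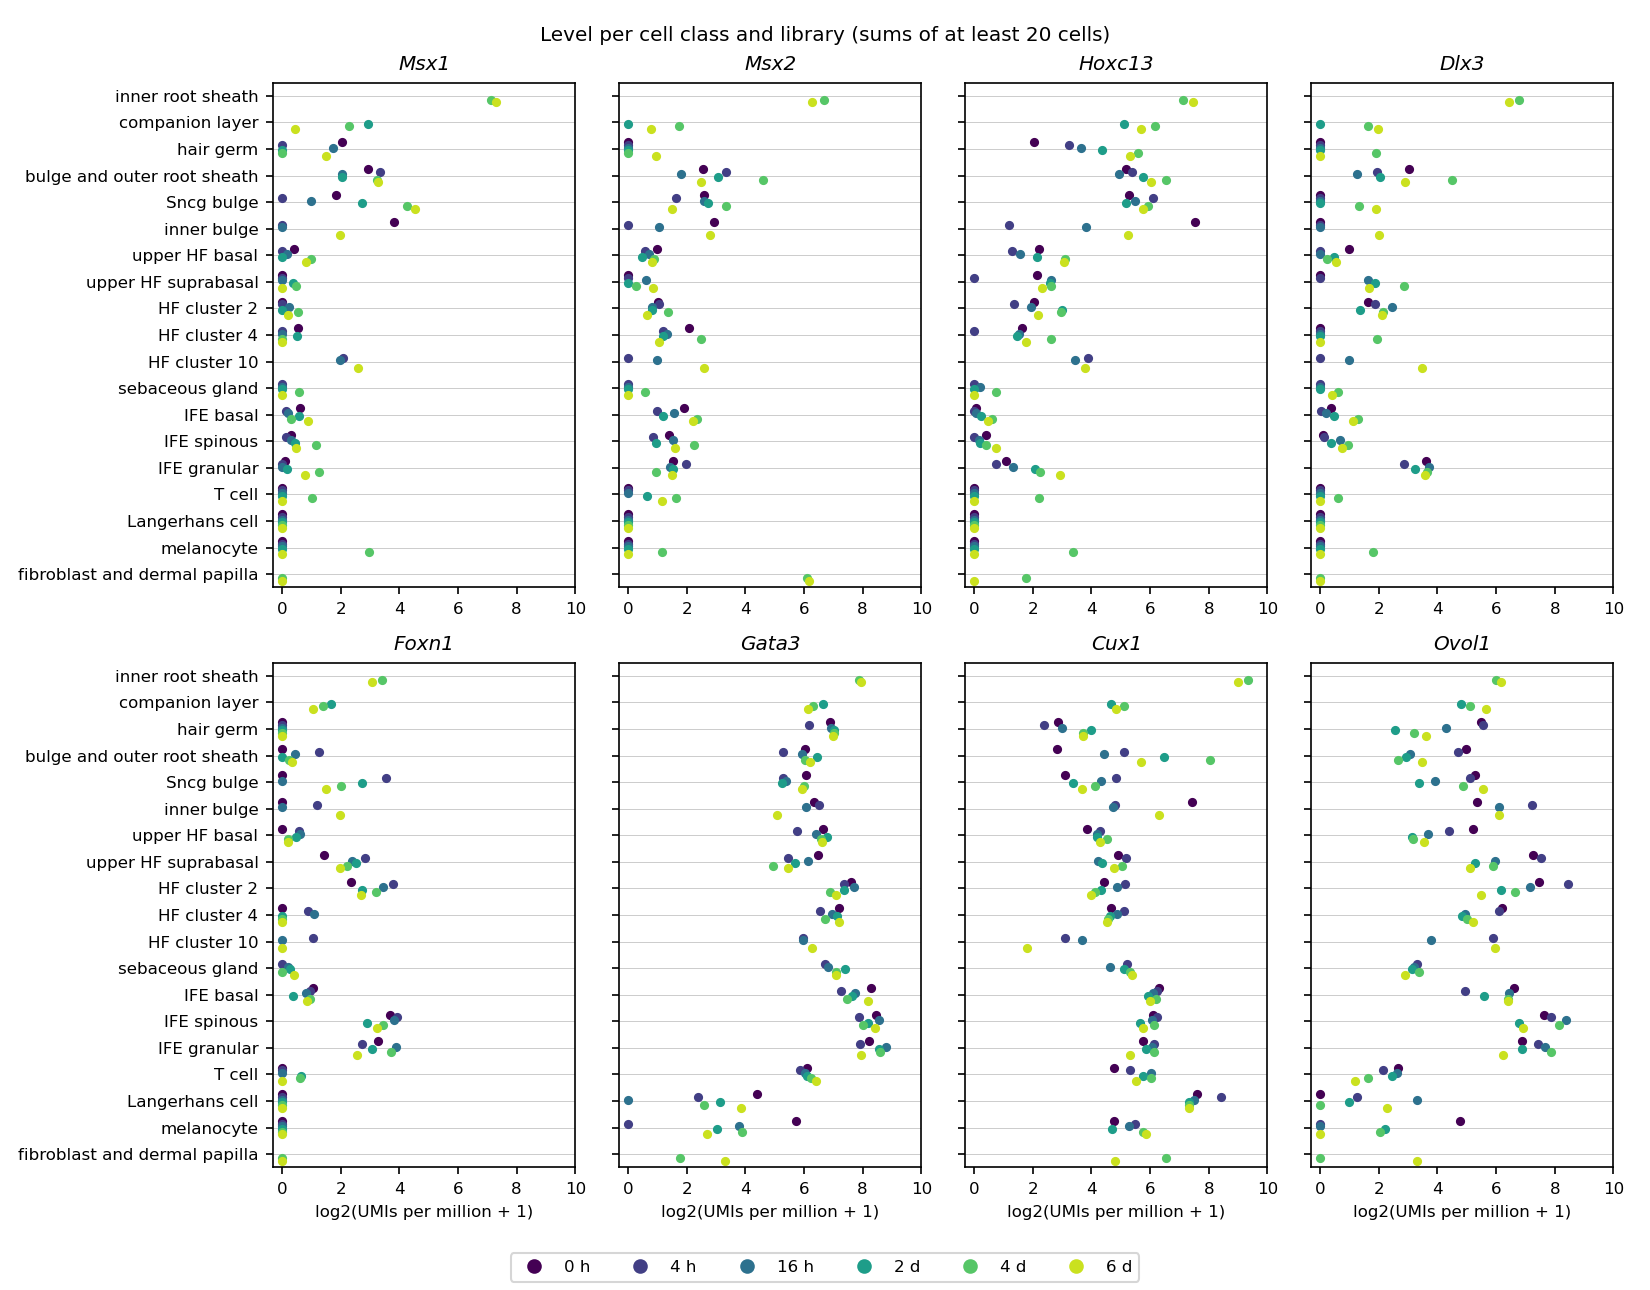
Each panel plots the level of 1 member as log2(CPM + 1) by cell class and numbered HF cluster, 1 point per library with at least 20 cells of the class, coloured by time point. The 2 points of the IRS and matrix class (named inner root sheath) lie to the right of the other classes for Msx1, Dlx3 and Cux1, whereas Foxn1, Gata3 and Ovol1 reach as high or higher in IFE spinous and granular cells.

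In that comparison 7 of the 8 members were called higher, where 27.4% of the 11829 genes tested were called and 11% were called higher. Dlx3 was higher by 2.90 ± 0.282 (7.45-fold, adjusted p = 1.52e-05, edgeR), with 21.4 and 6.45 CPM in bulge and ORS cells at 4 d and 6 d. Msx2 was higher by 2.84 ± 0.46 (7.17-fold, adjusted p = 0.0146, edgeR), with 23.4 and 4.66 CPM in bulge and ORS cells. Ovol1 was higher by 3.24 ± 0.257 (adjusted p = 9.68e-09, edgeR) and Gata3 by 1.80 ± 0.184 (adjusted p = 9.71e-08, edgeR). Foxn1 was close to absent from bulge and ORS cells, with 3 UMIs at 4 d and 2 at 6 d, against 57 and 9 in the IRS and matrix class. The ratio of CPM was 53.5 [17.4–267.0] at 4 d and 27.3 [5.66–260.0] at 6 d, and the adjusted p was 9.09e-07 (edgeR).

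Hoxc13 was 2.02-fold higher in the IRS and matrix class (log2 1.01 ± 0.196, adjusted p = 0.000502, edgeR), but its direction turned with the cells counted as the class. With coarser clustering, where the class is its IRS keratin cells alone, the difference was -2.09. There the Krt35 cells counted as bulge and ORS, in a cluster of 2469 cells led by Basp1, Krt35, Dcn and Col14a1. With 5 other seeds of the clustering the Hoxc13 difference lay between -1.62 and -1.65. Bulge and ORS cells were themselves rich in Hoxc13, from 29.7 to 92 CPM over the 6 libraries. Cux1 did not pass the test (log2 2.28 ± 0.808, adjusted p = 0.279, edgeR): bulge and ORS cells gave 265 CPM at 4 d and 50.5 at 6 d, so the difference itself varied between the 2 libraries. With coarser clustering, where Krt35 cells stood on the bulge and ORS side, Msx1 and Msx2 were 0.57 and 0.72 higher and were not called. Gata3 was not called against bulge and ORS cells when the Krt35 cells alone stood for the class, at 0.73. It was not called either with the 15 cells of 2 d added to the class, at 1.27.

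Genes linked to the members gave a reference. Of 30 hair shaft and IRS differentiation genes, 16 were tested in this comparison, 14 were higher, none was lower, and their median log2 difference was 6.22, where the median of all genes tested was -0.0256. The shaft keratins Krt35 (8.95) and Krt86 (7.78), the desmosomal cadherin Dsg4 (8.88) and the IRS keratin Krt25 (7.62) differed most. Of all genes tested, 11% were higher and 16.3% lower. Of 29 other follicle transcription factors, 22 were tested, 8 were higher and 8 lower, with a median of 0.0879. Grhl3 (4.47) and Foxq1 (3.82), the forkhead gene of the hair medulla, were among the higher, and Hoxc5 (-4.29) and Barx2 (-3.94) among the lower. Of 18 signals, all tested, 10 were higher and 3 lower, with a median of 1.05, led by the matrix ligands Shh (7.18), Wnt10b (6.98), Bmp4 (5.14) and Wnt3 (3.55). The shaft and IRS genes and the signals were open to the clustering, and the class was named from some of them, so their differences are no independent evidence.

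The IRS and matrix class split into 280 cells rich in IRS keratins and 474 others. The keratin part was the set of class cells that coarser clustering set apart, with 230 cells at 4 d and 50 at 6 d. It gave 2540 and 3460 CPM of Krt25 and 2120 and 3180 of Krt71. The remaining part held 369 cells at 4 d and 86 at 6 d, with 737 and 2290 CPM of Krt35, 198 and 347 of Lef1 (a Wnt effector of the matrix and precortex) and 74.1 and 104 of Shh. This comparison was added after the data had been seen. Keratin and Shh genes were open to the clustering (Lef1 and the members were not), so they describe the parts and test nothing.

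The members divided between the parts. Hoxc13 was at 18.4 and 34.6 CPM in the keratin part at 4 d and 6 d and at 206 and 258 in the remaining part. Msx1 was at 46.4 and 62.3 against 187 and 213, and Msx2 at 51.8 and 39.2 against 128 and 96.5. These 3 genes were lower in the keratin part, by -3.25 ± 0.195, -1.89 ± 0.163 and -1.26 ± 0.182 (adjusted p = 2.3e-06, 3.02e-05 and 0.000814, edgeR). Gata3 ran the other way, at 403 and 535 CPM in the keratin part against 144 and 78.3 in the remaining part (log2 2.00 ± 0.283, adjusted p = 0.0067, edgeR). Ovol1 was also higher in the keratin part, at 103 and 111 against 41.2 and 49.6 (1.31 ± 0.185, adjusted p = 0.000718, edgeR).

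Foxn1 was higher in the keratin part by 2.73 ± 0.481 (adjusted p = 0.00267, edgeR), at 22.7 and 11.5 CPM against 2.59 and 5.22. The sums were small, with 52 UMIs in the keratin part and 14 in the remaining part over both libraries. At 6 d, after thinning to 2000 UMIs, Foxn1 was seen in 1 of 48 and 1 of 83 cells. DESeq2 called neither Foxn1 (adjusted p = 0.414) nor Ovol1 (adjusted p = 0.0554). Dlx3 did not separate the parts, at 97.2 and 108 CPM against 113 and 71.7 (0.07 ± 0.195, adjusted p = 0.859, edgeR). Cux1 was at 688 and 639 against 632 and 430 and did not pass (0.36 ± 0.124, adjusted p = 0.0719, edgeR). Of the 8747 genes tested 19.3% were called, 11.7% higher and 7.61% lower in the keratin part, against 3 members called in each direction.

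**Figure D3:**
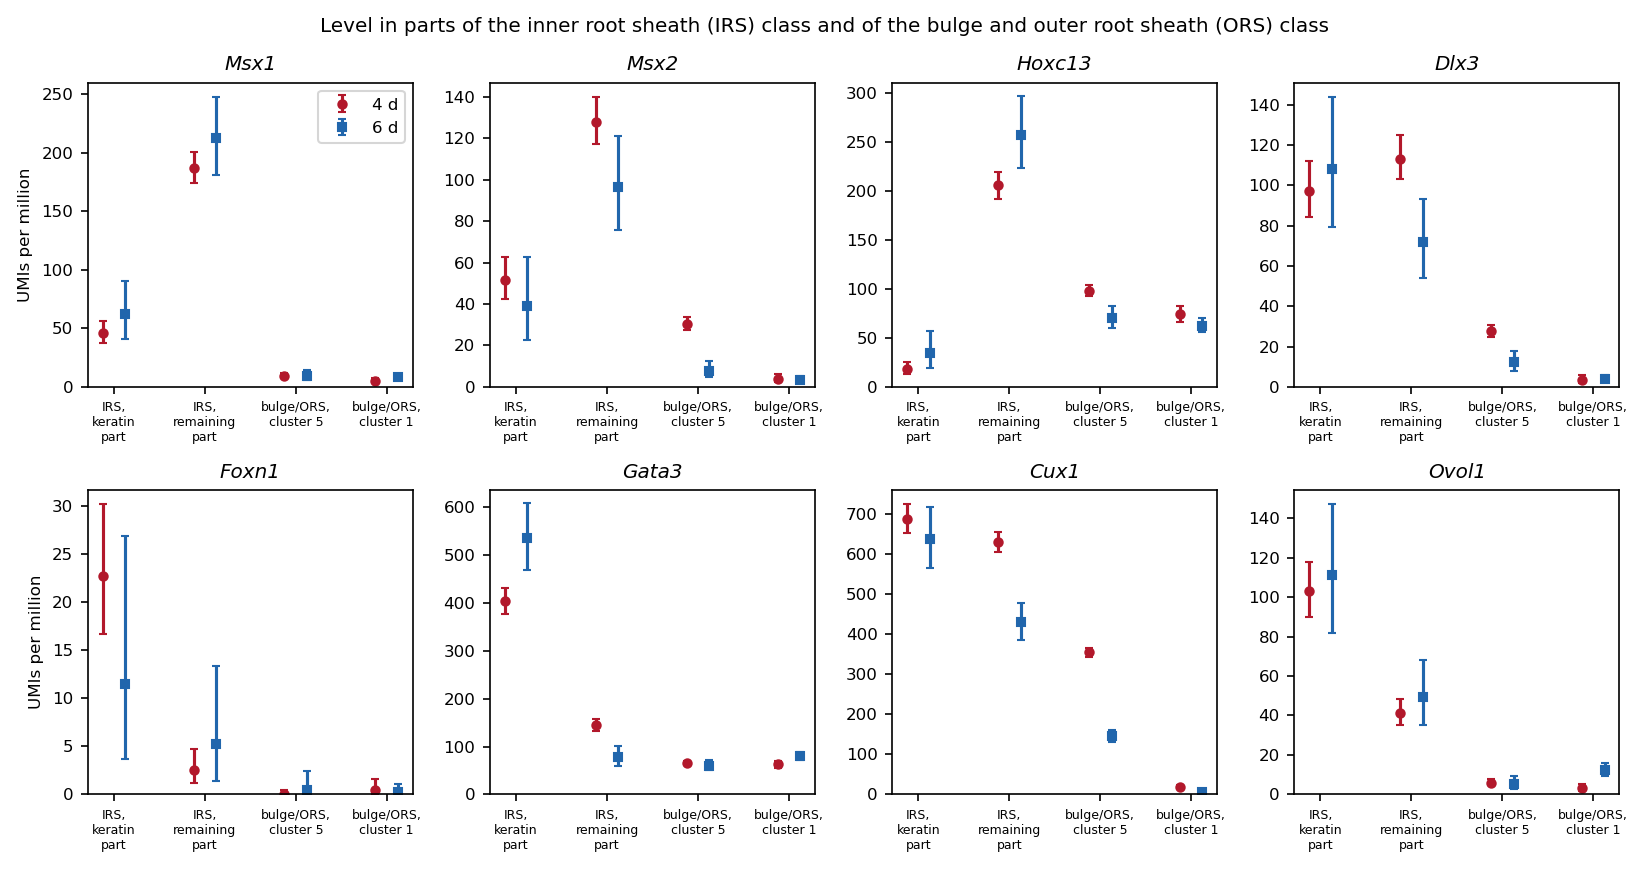
Each panel plots the level of 1 member (CPM, linear axis from 0) at 4 d and 6 d in the keratin part and the remaining part of the IRS and matrix class and in the 2 clusters of the bulge and ORS class, with exact Poisson 95% intervals that cover counting error only. Hoxc13, Msx1 and Msx2 lie lower and Gata3 and Ovol1 higher in the keratin part than in the remaining part at both times.

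Among the linked genes, Foxe1 (4.84), Barx2 (2.71), Grhl3 (2.35) and Dlx5 (2.32) led the 5 follicle transcription factors higher in the keratin part, of 17 tested, and 6 were lower. Of 17 signals tested, 2 were higher and 10 lower in it, with a median of -0.912, and the receptor Edar (-6.87) and the ligands Jag2 (-3.61), Wnt3 (-3.34) and Bmp2 (-2.94) differed most. Of 16 shaft and IRS genes, 8 were higher, led by Krt71 (8.52), Tchh (8.0), Krt73 (6.24) and Krt25 (4.82), and 4 were lower. The median over all genes was -0.00618, with 11.7% of genes higher and 7.61% lower. The keratins and signals were open to the clustering. The transcription factors and the members were kept out of it, but the parts were cut in the same cells, by genes that can vary with them. Their differences are thus no independent evidence either.

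Single cells gave the same division for some pairs only. In the IRS and matrix class thinned to 2000 UMIs, Gata3 was seen in 13.4% of the 97 Hoxc13-positive cells at 4 d and in 36.8% of the others, and at 6 d in 10.5% of 38 and in 35.5%. Gata3 was seen in 50% of Ovol1-positive cells and 30.4% of the others at 4 d, and in 45.5% and 26.7% at 6 d. Msx1 was seen in 40.2% of Hoxc13-positive cells against 14.7% at 4 d, but in 18.4% against 23.7% at 6 d. Before thinning this pair did not turn, with 66.1% against 33.9% at 4 d and 59.0% against 40% at 6 d. Of the 28 pairs, 10 were seen together more often and 9 less often at both times (13 and 6 without thinning). The cells share a library and UMIs are sparse, so these shares are a description. At 4 d, 10.6% of the thinned cells showed no member, 29.9% showed 1, 34.0% showed 2 and 19.1% showed 3. Before thinning, 1 of 599 cells showed all 8.

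Cux1 reached the largest share of IRS and matrix cells, 66.2% of 592 [62.2–70.0] at 4 d and 50.4% of 131 [41.5–59.2] at 6 d after thinning (95.2% and 86.0% before). Bulge and ORS cells gave 24.2% [22.5–26.1] at 4 d and 4.34% [3.26–5.65] at 6 d (39.0% and 9.11% before thinning). The share of T cells was 9.54% [7.02–12.6] and 8.85%, above the bulge and ORS share at 6 d. CUX1 is made in many cell types, so T cells are no blank for it. Hoxc13 was seen in 16.4% of IRS and matrix cells [13.5–19.6] and 15.1% of bulge and ORS cells [13.6–16.6] at 4 d, intervals that overlap, and in 29.0% [21.4–37.6] and 12.3% [10.5–14.3] at 6 d (40.4, 41.8, 44.9 and 29.0% before thinning, in the same order). In T cells it was seen in 0.651% at 4 d. Free RNA in a droplet library gives UMIs in cells that do not make a gene. At 4 d T cells gave 3.69 CPM of Hoxc13, 2.11 of Msx2 and 1.05 of Msx1, and melanocytes gave 9.31 of Hoxc13 and 6.83 of Msx1. Langerhans cells, the immune cells of the epidermis, had 0 UMIs of Msx1, Msx2, Hoxc13, Dlx3 and Foxn1 in all 6 libraries.

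The bulge and ORS class joined 2 clusters with different members. HF cluster 1, of 2787 cells led by the bulge genes Krt24, S100a4, Sfrp1 and Cd34, gave 3.14, 3.61, 2.31, 7.81, 18.9 and 7.01 CPM of Cux1 in time order. HF cluster 5, of 1972 cells led by Col14a1 and Basp1, gave 26.9, 141, 79.3, 140, 355 and 145. Cluster 5 was the higher in every library. Against cluster 1 alone the IRS and matrix class was higher in Cux1 by 5.61, and against cluster 5 alone by 1.35. Over time, 0.00993% of the genes tested were called in cluster 1 alone and 2.9% in cluster 5 alone, and no member was called in either (edgeR). The unadjusted p was under 0.05 for Cux1 and Ovol1 in cluster 1, as for 688 of 10075 genes there, and for Msx2, Dlx3 and Cux1 in cluster 5, as for 1100 of 8921 genes. Of the class, cluster 5 was 32 of 316 cells at 0 h, 1420 of 2264 at 4 d and 272 of 1229 at 6 d, so a change of the class over time mixes both.

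Hoxc13 was present in both clusters at every time, from 17.6 to 74.1 CPM in cluster 1 and from 16.4 to 98.5 in cluster 5. Msx2 was at 30.5 CPM at 4 d in cluster 5, where the other 5 libraries lay between 5.98 and 11.7, and at 3.83 in cluster 1. Dlx3 was at 27.8 CPM at 4 d in cluster 5 and at 3.6 in cluster 1. Ovol1 in cluster 1 was at 33.9, 28.0, 8.78, 10.7, 3.15 and 12.4 CPM in time order. Within both clusters Msx1 stayed at or below 9.7 CPM at 4 d and 6 d.

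**Figure D4:**
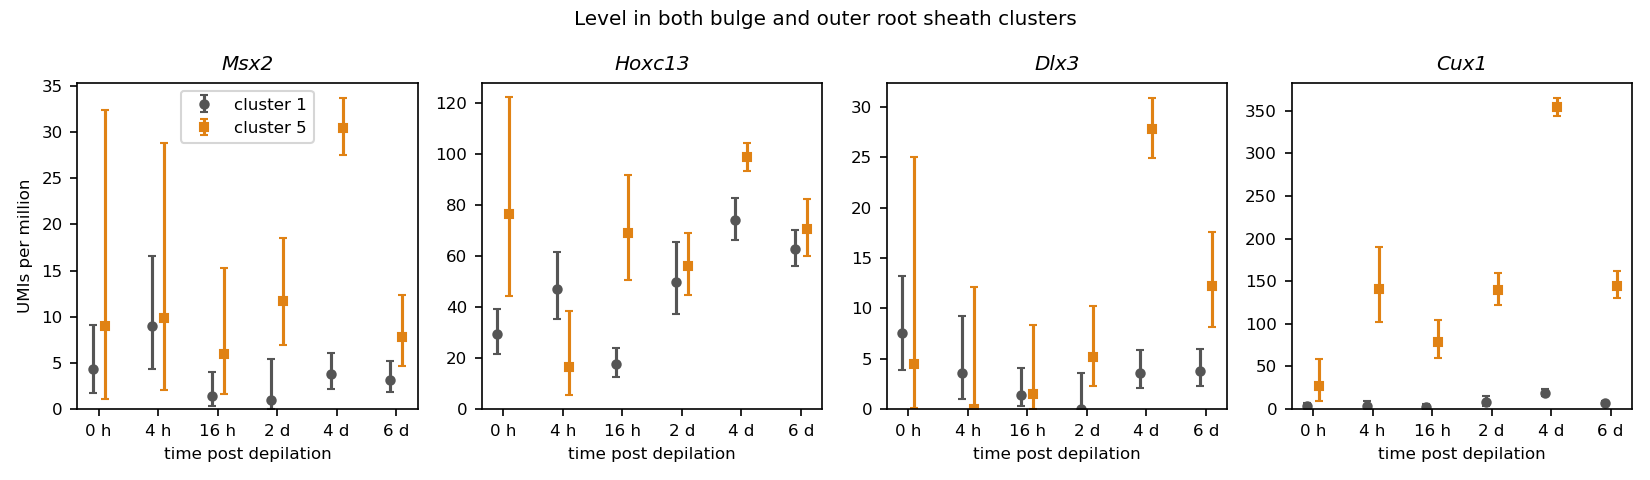
The panels plot the levels of Msx2, Hoxc13, Dlx3 and Cux1 (CPM, linear axis from 0) against time post depilation in HF clusters 1 and 5, which form the bulge and ORS class, with exact Poisson 95% intervals that cover counting error only. Cux1 is higher in cluster 5 than in cluster 1 in all 6 libraries, and Msx2 and Dlx3 are highest at 4 d in cluster 5.

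The time course was tested within 11 classes as a smooth curve over hours with 3 degrees of freedom, which leaves 2 for the spread. No member was called by edgeR in any of 48 pairs of member and class, and DESeq2 called 3 of the 42 pairs it tested. An unadjusted p under 0.05 was found for 11 pairs, of which 4 were Cux1, Dlx3, Ovol1 and Msx2 in bulge and ORS cells, where 1321 of 10751 genes had one too. The other 7 lay in 5 classes where between 281 of 11265 genes (upper HF basal) and 550 of 9930 genes (upper HF suprabasal) did. In bulge and ORS cells, where 1.63% of 10751 genes were called, Cux1 ran from 6.06 CPM at 0 h to 265 at 4 d (adjusted p = 0.0931, edgeR), Dlx3 from 1.41 at 16 h to 21.4 at 4 d (adjusted p = 0.107, edgeR), and Ovol1 from 30.3 at 0 h to 5.27 at 4 d (adjusted p = 0.128, edgeR). Hoxc13, from 29.7 at 16 h to 92 at 4 d, had an adjusted p of 0.554 (edgeR). Of all genes tested, none was called in 7 classes, 0.0514% in T cells, 0.0164% in Langerhans cells and 4.09% in melanocytes. Without the 0 h library Cux1, Dlx3, Msx2 and Ovol1 were called in bulge and ORS cells (adjusted p = 1.72e-13, 1.93e-06, 0.000105 and 0.00833, edgeR). They were also called without the 4 h library (2.9e-10, 0.000562, 0.00101 and 0.00119), and without 16 h Cux1 alone was (0.00113). Calls over all genes moved as well, from 175 to 2022 without 0 h, 1410 without 4 h and 390 without 16 h, and down to 46 without 2 d and 12 without 4 d, where no member was called. Of the linked genes in this class, 1 of 18 other follicle transcription factors was called up, 1 of 7 shaft and IRS genes and 2 of 15 signals were called down.

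In bulge and ORS cells the share of cycling cells was highest at 4 d. Cells with at least 2 UMIs of 10 cycling markers after thinning made up 6.01, 3.97, 12.1, 41.4, 55.2 and 27.0% of bulge and ORS cells in time order, and 76.5% and 60.3% of IRS and matrix cells at 4 d and 6 d. Within bulge and ORS cells, cycling cells were higher in Cux1 by 1.68 ± 0.312 (adjusted p = 0.00619, edgeR), in Dlx3 by 0.84 ± 0.229 (adjusted p = 0.00448, edgeR) and in Msx2 by 0.81 ± 0.235 (adjusted p = 0.00772, edgeR). Of 10453 genes tested, 27.1% were called and 10.9% were higher. The class joins HF clusters 1 and 5, which differed in Cux1, Msx2 and Dlx3 at 4 d, and the contrast was not made within either. It cannot be told apart from a different mix of both clusters. Hoxc13 (-0.07), Msx1 (0.07), Gata3 (-0.18) and Ovol1 (-0.43) did not pass. DESeq2 called Cux1 alone, and without the 4 d library Msx2 (0.53) and Dlx3 (1.13) lost their calls and Ovol1 (-1) gained one.

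Within the IRS and matrix class, cycling cells were lower in Hoxc13 by -1.32 ± 0.144 (adjusted p = 1.77e-07, edgeR), in Ovol1 by -0.97 ± 0.19 (adjusted p = 0.000353, edgeR) and in Foxn1 by -1.27 ± 0.417 (adjusted p = 0.0238, edgeR). They were higher in Msx1 by 0.50 ± 0.162 (adjusted p = 0.022, edgeR) and in Cux1 by 0.46 ± 0.127 (adjusted p = 0.00832, edgeR). Of 8041 genes, 29.6% were called. The class joins the keratin part and the remaining part, which differed in Hoxc13, Msx1, Ovol1 and Foxn1. For these genes the contrast cannot be told apart from a different mix of both parts. DESeq2 called Hoxc13 alone of the 8. With coarser clustering, where the class is its IRS keratin cells alone, none was called and Hoxc13 turned to 0.31 and Foxn1 to 0.36.

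Foxn1, Gata3 and Ovol1 were higher in the spinous than in the basal layer of the IFE. In IFE spinous cells, the layer above the dividing basal cells, Foxn1 was at 11.9, 14.0, 13.3, 6.41, 10.0 and 8.42 CPM in time order and in basal cells between 0.311 and 1.07, with no overlap. The step was 3.91 ± 0.15 (15.1-fold, adjusted p = 2.42e-08, edgeR). Ovol1 was between 110 and 335 CPM in spinous and between 29.7 and 96.0 in basal cells (1.70 ± 0.282, 3.25-fold, adjusted p = 0.00158, edgeR). Gata3 was between 233 and 375 against 151 and 311, ranges that overlap (0.63 ± 0.0742, 1.55-fold, adjusted p = 4.06e-05, edgeR). These were 3 of the 7 members tested, where 55.3% of 12521 genes were called and 27.0% higher, so the count itself is near the background. Msx1 (-0.06), Msx2 (-0.28), Dlx3 (0.05) and Cux1 (-0.01) did not pass, and Hoxc13 was too low to be tested.

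From basal to suprabasal cells of the upper HF, Foxn1 rose by 3.69 ± 0.435 (12.9-fold, adjusted p = 2.33e-06, edgeR) and Ovol1 by 2.48 ± 0.159 (5.6-fold, adjusted p = 1.6e-08, edgeR). Gata3 was lower in suprabasal cells, between 29.9 and 88.9 CPM against 53.9 and 109 (-0.76 ± 0.163, adjusted p = 0.00198, edgeR). Cux1 was higher, between 17.8 and 34.9 against 13.3 and 22.2 (0.59 ± 0.137, adjusted p = 0.00151, edgeR). Of 11254 genes 58.6% were called, and of 5 members tested, 4. Msx1, Msx2 and Dlx3 were too low to be tested, and Hoxc13 (0.05) did not pass.

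Tested directly as the IFE step minus the upper HF step, Gata3 differed by 1.36 ± 0.186 (adjusted p = 2.73e-05, edgeR), Cux1 by -0.64 ± 0.155 (adjusted p = 0.00479, edgeR) and Dlx3 by -3.20 ± 0.825 (adjusted p = 0.00733, edgeR). Of 12381 genes, 22.8% were called. Dlx3 rests on few UMIs, with 0 to 1.0 CPM in upper HF basal cells, it could not be tested within the upper HF, and its difference was not called without the 4 d library (-2.35). Foxn1 (0.02), Ovol1 (-0.81), Msx2 (0.71) and Hoxc13 (0.72) did not pass, and the SE of these differences leaves room for a difference.

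**Figure D5:**
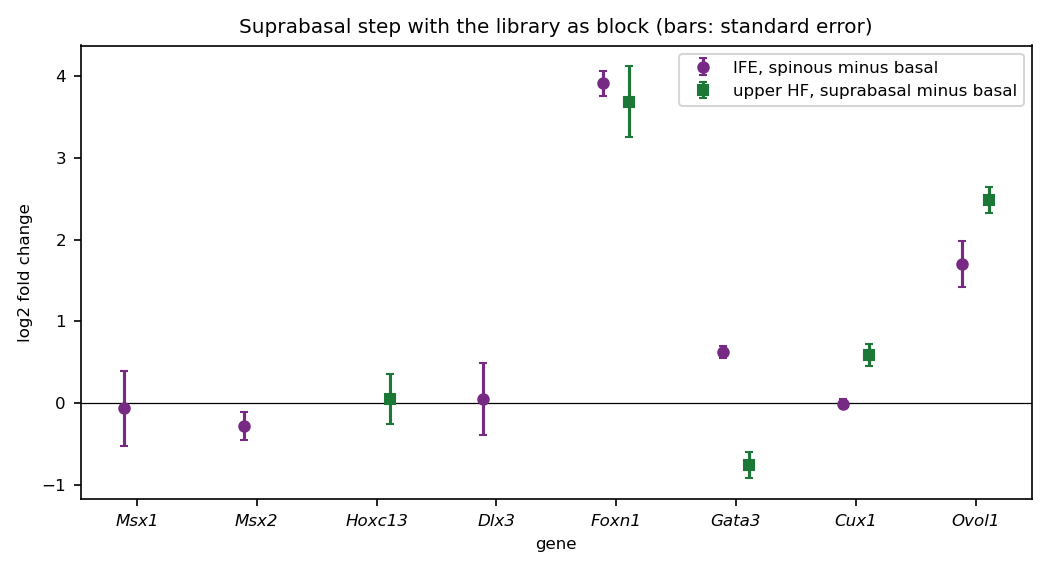
Points give the log2 fold change from basal to spinous cells of the IFE and from basal to suprabasal cells of the upper HF for each member tested, from edgeR with the library as a block, and bars are the standard error. Foxn1 and Ovol1 lie above 0 in both compartments, and Gata3 lies at 0.63 in the IFE and at -0.76 in the upper HF.

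Among the linked genes, 6 of 19 other follicle transcription factors tested were higher and 12 lower in IFE spinous than basal cells, and in the upper HF 8 of 17 were higher and 5 lower. Of all genes tested, 27% were higher and 28.3% lower in the IFE step, and 28.3% were higher and 30.3% lower in the upper HF step. Of the shaft and IRS genes, 4 of 12 were higher in the IFE step and 2 of 5 lower in the upper HF step. Of 16 signals tested in each, 4 were higher and 8 lower in both steps.

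Ordered by the median over libraries with at least 20 cells, the IRS and matrix class led for 5 members. Msx1 was at 138 to 158 CPM there, and the next class, bulge and ORS, at 3.12 to 9.21, with no overlap, whereas the latter overlapped Sncg bulge cells (0 to 22). For Msx2 the next was the fibroblast and dermal papilla class, at 67.1 [44.6–96.9] at 4 d from 28 UMIs and 71.5 [30.9–141.0] at 6 d from 8 UMIs, against 101 and 75.8, so at 6 d the 2 cannot be separated. The dermal papilla, the signalling centre under the matrix, is a known site of Msx2. For Hoxc13 the companion layer (33.4 to 71.8 CPM), Sncg bulge cells (35.2 to 67.8) and bulge and ORS (29.7 to 92) followed and overlapped each other. Inner bulge cells reached 186 CPM of Hoxc13 at 0 h from 28 UMIs of 20 cells and were otherwise as low as 1.29. Hair germ cells, the source of the matrix, gave 3.16, 8.42, 11.6, 19.7, 47.6 and 39.1 CPM of Hoxc13 in time order.

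For Dlx3, IFE granular cells came second, at 6.31 to 12.2 CPM, and overlapped bulge and ORS cells, at 1.41 to 21.4. For Cux1, Langerhans cells came second, at 159 to 338 CPM against 506 to 651, and the 3 IFE layers (38.5 to 77.5 between them) overlapped. Foxn1 was highest in IFE spinous cells, at 6.41 to 14.0 CPM, and the IRS and matrix class (7.5 to 9.61) and granular cells (4.93 to 13.7) lay inside or across that range. Gata3 was highest in granular cells (238 to 448 CPM), which overlapped spinous cells (233 to 375), the IRS and matrix class (234 to 243) and IFE basal cells (151 to 311). Ovol1 was highest in spinous cells (110 to 335), which overlapped granular cells (74.0 to 234). T cells of skin cluster 12 gave 66.6 to 185 CPM of Gata3, a factor of type 2 lymphocytes.

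Across 91 sums of a class in a library with at least 50 cells, and 10162 genes, the 3 genes most like each member were found by Pearson's r of log2(CPM + 1). These sums share libraries and cells of a kind, so r is a description. Hoxd8 (0.741), Krt28 (0.735) and Hoxc13 (0.726) were nearest to Msx1, and Hoxd8 (0.884), Lhx2 (0.864) and Tbx1 (0.84), the last 2 known from the bulge, to Hoxc13. Dcn (0.727), Dok4 (0.631) and Krt25 (0.613) were nearest to Msx2, and Slc30a1 (0.684), Krt28 (0.678) and Arg2 (0.66) to Dlx3. Ceacam19 (0.856), 4833423E24Rik (0.807) and Rbp2 (0.806) were nearest to Foxn1. Ppl (0.885), Epha2 (0.861) and Jup (0.861), genes of cell junctions and the cornified envelope in part, were nearest to Ovol1. Kcnk7 (0.818), Bcl11b (0.793) and Zfpm1 (0.752), a partner of GATA factors, were nearest to Gata3, and Sox5 (0.625), Fgfr1op2 (0.607) and Nsf (0.604) to Cux1. Between members, r was 0.726 for Msx1 and Hoxc13, 0.721 for Foxn1 and Ovol1, 0.696 for Gata3 and Ovol1, 0.66 for Msx1 and Msx2, and -0.216 for Hoxc13 and Cux1.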

How the data were processed

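The 6 libraries (10x Genomics 3' chemistry) were analysed from the deposited UMI counts per gene and barcode. Per the labels, the authors made these counts with Cell Ranger 6.1.2 on mm10 (the submitters' processing notes), and whether intronic reads were counted is not given in the sources used here. Genes were mapped by symbol and located in GENCODE on GRCm38. Exons of Gata3, Cux1 and Ovol1 share 155, 394 and 76 bases with antisense genes, and Gata3 shares 77 with a gene on its strand.

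Cells with 500 to 7000 genes and at most 10% mitochondrial UMIs were kept (55177), and the highest Scrublet scores (scanpy 1.11.5) were removed as doublets at 0.8% per 1000 barcodes (5203 cells). Libraries were joined with Seurat 5.3.0 (2000 variable genes, 30 components, resolution 0.2 for all cells and 0.4 for 19620 hair follicle, HF, cells, 0.2 as an alternative). The members, the list of other follicle transcription factors and cell cycle genes, 453 in all, were kept out of clustering; shaft, IRS and signal genes were not. A cluster took the name of the class with the largest mean log2 difference of its markers, among classes with at least 3 markers higher. A marker was higher if it differed by 0.5 (log2) and was present in 10% of cells, and 16 classes were named. HF clusters 2, 4 and 10 met the rule for IFE spinous (6 of 6 markers), IFE basal (5 of 6) and inner bulge (3 of 6). They were kept under their numbers and not added to those classes, so their cells are in neither the IFE nor the upper HF step. This naming rule, the comparison of the parts of the IRS class and the other seeds were chosen after seeing the data, and cells of 1 class can differ from those the study named.

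UMIs were summed per class and library. Shares of cells were thinned to 2000 UMIs (2048 cells were shallower), with exact Clopper-Pearson 95% intervals. These intervals and the limits from a count of 0 (3 counts) cover counting error only. Sums of at least 20 cells (10 for cycling cells) were tested with edgeR 4.0.16 (quasi-likelihood, TMM, filterByExpr), with the library as a block between classes and a spline of hours for the time course; calls are Benjamini-Hochberg adjusted p under 0.05 over all genes tested, two-sided. DESeq2 1.42.0 was an alternative. Classes are compared over libraries, of which the IRS comparisons had 2. The p-values rest on the spread between these libraries, which edgeR moderates by the spread of all genes tested. They cover no other source of spread. The scripts were tested on simulated data.

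All 8 members are named always, of each other list at most the 4 called genes that differed most, and the 3 genes most like each member (mean at least 5 CPM). The members and lists were chosen with earlier results of these data known.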

Additional observations from a re-analysis of the deposited data

Results flagged for a closer look

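The basal to suprabasal step of 3 members differed between the IFE and the upper HF by a test of the difference itself, over 6 libraries with the library as a block (edgeR's quasi-likelihood test). As the IFE step minus the upper HF step on the log2 scale, Dlx3 differed by -3.2 (adjusted p = 0.00733), from -2.35 without the 4 d library, where it was not called, and its upper HF basal level, 0 to 1.0 CPM, was too low for a test of that step alone. Gata3 differed by 1.36 (adjusted p = 2.73e-05). Cux1 differed by -0.64 (adjusted p = 0.00479). Interaction calls took in 22.8% of the genes tested.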

How the results depend on the processing

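No paired analysis was possible because each time point is 1 library, and replicate 1 of one library shares only its number with that of another; between classes the library was the block in every fit. Of the values of single members in class comparisons, 306 kept their direction and side of the threshold over all alternatives, 13 gained a call, 19 lost one and 27 turned direction. In the IRS and matrix class against bulge and ORS cells, Hoxc13 turned to -2.09 at HF resolution 0.2, to -1.62, -1.65, -1.62, -1.63 and -1.63 with seeds 2 to 6, and to -1.8 with the keratin part alone. In the setting with resolution 0.2, the Krt35 cells counted as bulge and ORS. Leaving out a library could not be fitted in the IRS comparisons. At resolution 0.2 no upper HF suprabasal class was named, so that step has no value there.

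Values near 0 turned as follows. In the IFE step, DESeq2 gave Msx1 0.08. Without 1 library, Msx1 ran from -0.21 to 0.17 (0.17 without 0 h, 0.03 without 2 d), Dlx3 from -0.51 (without 16 h) to 0.29 and Cux1 from -0.03 to 0.05 (above 0 without 0 h, 2 d and 6 d). In the upper HF step, Hoxc13 ran from -0.19 (without 16 h; -0.12 without 2 d) to 0.27. The Foxn1 difference between the steps was -0.02 with DESeq2, and ran from -0.43 (without 16 h; 0 without 2 d) to 0.19. In cycling bulge and ORS cells Msx1 was 0 with DESeq2 and ran from 0 (without 6 d) to 0.18, and Hoxc13 from -0.06 to 0.04 (without 4 d). In cycling IRS and matrix cells Msx2 was 0.05 with no filter, and at resolution 0.2 Msx2 was 0.16, Hoxc13 0.31, Foxn1 0.36 and Gata3 0.48.

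The count of 0 called pairs in the time course became 5 with log2 hours, 1 with ranks, 3 with DESeq2, 2 with no filter and 0 to 6 without 1 library. Called members in cycling bulge and ORS cells went from 3 to 1 with DESeq2 (2 to 3 without 1 library), and in cycling IRS and matrix cells from 5 to 1 with DESeq2 and 0 at resolution 0.2. Called members without 1 library were 3 in the IFE step, 4 to 5 in the upper HF step and 2 to 3 in the difference. Of the adjusted p-values of single members over time, 521 kept their side of the threshold and 23 passed it under an alternative. The members led by the IRS and matrix class stayed 5 with TMM scaling, and those with their largest share of cells in it at 4 d went from 6 to 5 at 1000 UMIs and to 4 with no thinning. With TMM scaling, 1000 UMIs or no thinning, 23 levels and shares of that class at 4 d moved beyond their counting interval and 1 did not. By Spearman correlation 7 of the 24 likeness genes stayed. Shares of cells fall with fewer UMIs per cell and rise without thinning by construction. For the other changes the cause was not tested.

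Over all genes, time course calls ran from 1 to 2022 in bulge and ORS cells (175 reported), 5 to 286 in Sncg bulge, 1 to 584 in hair germ, 4 to 283 and 2 to 717 in upper HF basal and suprabasal, 1 to 102, 4 to 33 and 1 to 254 in IFE basal, spinous and granular (0 reported in each of these), 0 to 633 in T cells (4), 0 to 136 in Langerhans cells (1) and 42 to 599 in melanocytes (168). The 3236 calls of the IRS comparison became 1335 with DESeq2, 5222 against HF cluster 1 alone and 2120 with seed 2 in both steps. The 2819 of the step difference became 1777 and 1784 without 4 d and 6 d. The 2837 of cycling bulge and ORS cells became 1446 with DESeq2 and 1482 and 1428 without 4 d and 6 d. The 2377 of cycling IRS and matrix cells became 570 with DESeq2 and 1102 at resolution 0.2, and the 1686 of the keratin part 421 with DESeq2.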

Other observations

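With other seeds of the HF clustering, the Krt35 cells left the IRS keratin cluster. Seeds 2 to 6 gave a keratin cluster of 277 to 280 cells with 18.2 to 18.4 CPM of Hoxc13 at 4 d and 34.6 at 6 d, and a cluster of 1077 to 1143 cells led by Krt35 with 155 to 158 CPM at 4 d and 187 to 189 at 6 d. Bulge and ORS cells of these clusterings gave 76.5 to 77.2 and 61.2 to 63.8 CPM. With seed 2 in both clustering steps the IRS class held 506 cells, with 176 and 212 CPM of Hoxc13 at 4 d and 6 d against 91.5 and 63.6 in bulge and ORS cells.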
